A study of Schmidtea mediterranea with 177 samples.

Results

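The 60 transcripts described here were found more often in muscle cells of the posterior trunk of the planarian Schmidtea mediterranea than in all muscle cells in front of it pooled. They were chosen from the read counts of single muscle cells. A transcript was taken as found in a cell with more than 2 reads, its share of cells over regions 1 to 6 had to be 10% or less, and the transcripts were ranked by the share over regions 7 to 9 minus that share. A set of 12 contigs that the rule names was left out beforehand; the supplement names 9 of them as wnt1, wnt11-1, wnt11-2, wntP-2, fz4-1, sp5, lox5a, Post-2c and FoxD. The members are the first 60 of 26560 transcripts in the count table, of which 17896 met the limit on regions 1 to 6.

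The cells came from animals of the asexual strain CIW4, which were starved, cut crosswise into 10 adjacent pieces, numbered backwards with the head tip as region 1 and the tail tip as region 10, and dissociated. Only the midline of each piece was used, and the pharynx was removed from regions 5 and 6. Non-dividing cells (2N by Hoechst staining) were sorted singly and sequenced if a qRT-PCR screen found muscle markers, and the study then classed 115 of the 177 cells as muscle and 62 as non-muscle. No treatment is named for any animal. The groups set against each other are 35 muscle cells of regions 7 to 9 (9, 13 and 13 cells) and 68 muscle cells of regions 1 to 6 (6 to 23 cells a region). The 12 muscle cells of region 10, and the non-muscle cells (23 in regions 7 to 9, 32 in regions 1 to 6 and 7 in region 10), were not used in the choice. No animal is named for a cell, so the cells of a region and class count as 1 sample, and cells are not replicates.

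Body-wall muscle of planarians is more than a contractile tissue: its cells express regional genes. The study raises the possibility that these genes give other cells positional information along the body axis, and many of them have no known function. At the posterior end, Wnt ligands, their Frizzled receptors and Hox transcription factors mark the tail and trunk, and Wnt signalling through beta-catenin is known to be needed for a tail to form instead of a head. The members are transcripts next to this known set; most carry no name in the sources used here and are given by contig number, with dd_8392 standing for dd_Smed_v4_8392_0_1.

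The study names or lists 6 of the 60. TPH1 (dd_8392), named by its best human match, is tryptophan hydroxylase, the enzyme of the first and rate-limiting step of serotonin synthesis. Both dd_13186 and dd_16926 are named fz4-2, a Frizzled receptor for Wnt ligands, so they are a pair of contigs of 1 gene name and not independent members. SLC17A5 (dd_8907) matches sialin, which in humans carries sialic acid out of lysosomes. The other two, dd_15686 and dd_14161, have no annotation in the supplement. The oligonucleotides that the study designed to amplify these transcripts are shown because they tie each contig to a stretch of sequence, and because they tell the 2 fz4-2 contigs apart. The inner forward primer and the 3′ primer follow as the supplement lists them, with no base marked.
TPH1 inner forward: acggccaaaaccagacga
TPH1 3′ primer: ggaatctgtggagtcgaggg
fz4-2 (dd_13186) inner forward: aatagatccggatgaattgcttg
fz4-2 (dd_13186) 3′ primer: aggaaaagggggagggcc
fz4-2 (dd_16926) inner forward: atgcacacgaagatgtctaca
fz4-2 (dd_16926) 3′ primer: ggcagagtccacgacacg
dd_15686 inner forward: tgaagagccgacaaatgaca
dd_15686 3′ primer: tcgcaggaaattcagcact
dd_14161 inner forward: ccgtatgaaaatatttggtggcg
dd_14161 3′ primer: tgactggacaccgccaag

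The classes were compared with their markers, which the study chose on these same cells. Of 12 muscle markers, the median muscle cell had 12 in regions 7 to 9, in regions 1 to 6 and in region 10, whereas the median non-muscle cell had 2 in each. Of 12 epidermal lineage markers, the median muscle cell had 1 in regions 7 to 9, 1 in regions 1 to 6 and 2 in region 10, and 1 of the 12 was at 0 in each of these groups. Summed over the list, the epidermal markers lay between 39.4 and 147.7 reads per 1000000 reads (cpm) in regions 7 to 9, between 38.8 and 270.1 cpm in regions 1 to 6, and at 235.6 cpm in region 10. Of 12 neoblast markers the median muscle cell had 9 in regions 7 to 9, 10 in regions 1 to 6 and 10 in region 10, and smedwi-1, a marker of the planarian stem cells, was found in 25 of 35, 52 of 68 and 10 of 12 of these cells. The median non-muscle cell had 8, 6 and 9 neoblast markers in regions 7 to 9, 1 to 6 and 10, fewer than the median muscle cell in each. Of the epidermal lineage markers, the median non-muscle cell had 10, 11 and 6. The part of these other cell types in the results below was not tested. The posterior muscle cells were the shallower ones, with a median of 162415 reads in regions 7 to 9 and 276472 reads in regions 1 to 6, while region 10 had a median of 1238249.5 reads. Because region 10 is so deep, its shares are also given after each cell was thinned at random to 50000 reads.

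The cells' numbers in the titles fall into 3 separate ranges, called A, B and C here from low to high. No source used here says what the ranges mean. Range C held 15 of 35 muscle cells of regions 7 to 9, 18 of 68 of regions 1 to 6 and 3 of 12 of region 10. Among non-muscle cells, range C held 18 of 23 in regions 7 to 9 and 7 of 32 in regions 1 to 6. Region and range were therefore not balanced, and the main results are also given within ranges.

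The shares that chose the members were small. These shares, and every comparison below of regions 7 to 9 with regions 1 to 6 in muscle, within ranges as well, come from the cells that chose the members and are given as a description. Each member was found in 4 to 11 of the 35 muscle cells of regions 7 to 9, with a median of 7 cells, and in 0 to 6 of the 68 cells of regions 1 to 6. At 0 cells of regions 1 to 6 were 4 members, TPH1, dd_16397, dd_3560 and dd_22147. A further 13 were absent from regions 1 to 4 and first found in region 5 or 6, among them both fz4-2 contigs, dd_15686, dd_14161 and SLC17A5, and the other 43 were found in at least 1 cell of regions 1 to 4. Within the posterior trunk, the largest share was in region 7 for 9 members, in region 8 for 29 and in region 9 for 15, with 7 ties. Region 7 lacked 18 members altogether, and 40 members were found in all 3 regions. Depth differed among these regions, with medians of 114085, 193974 and 162415 reads in regions 7, 8 and 9. A muscle cell of regions 7, 8 and 9 held a median of 8, 16 and 12 members as deposited. After thinning the medians were 6.5, 7 and 6, so region 8 had little lead in members per cell at equal depth.

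**Figure D1:**
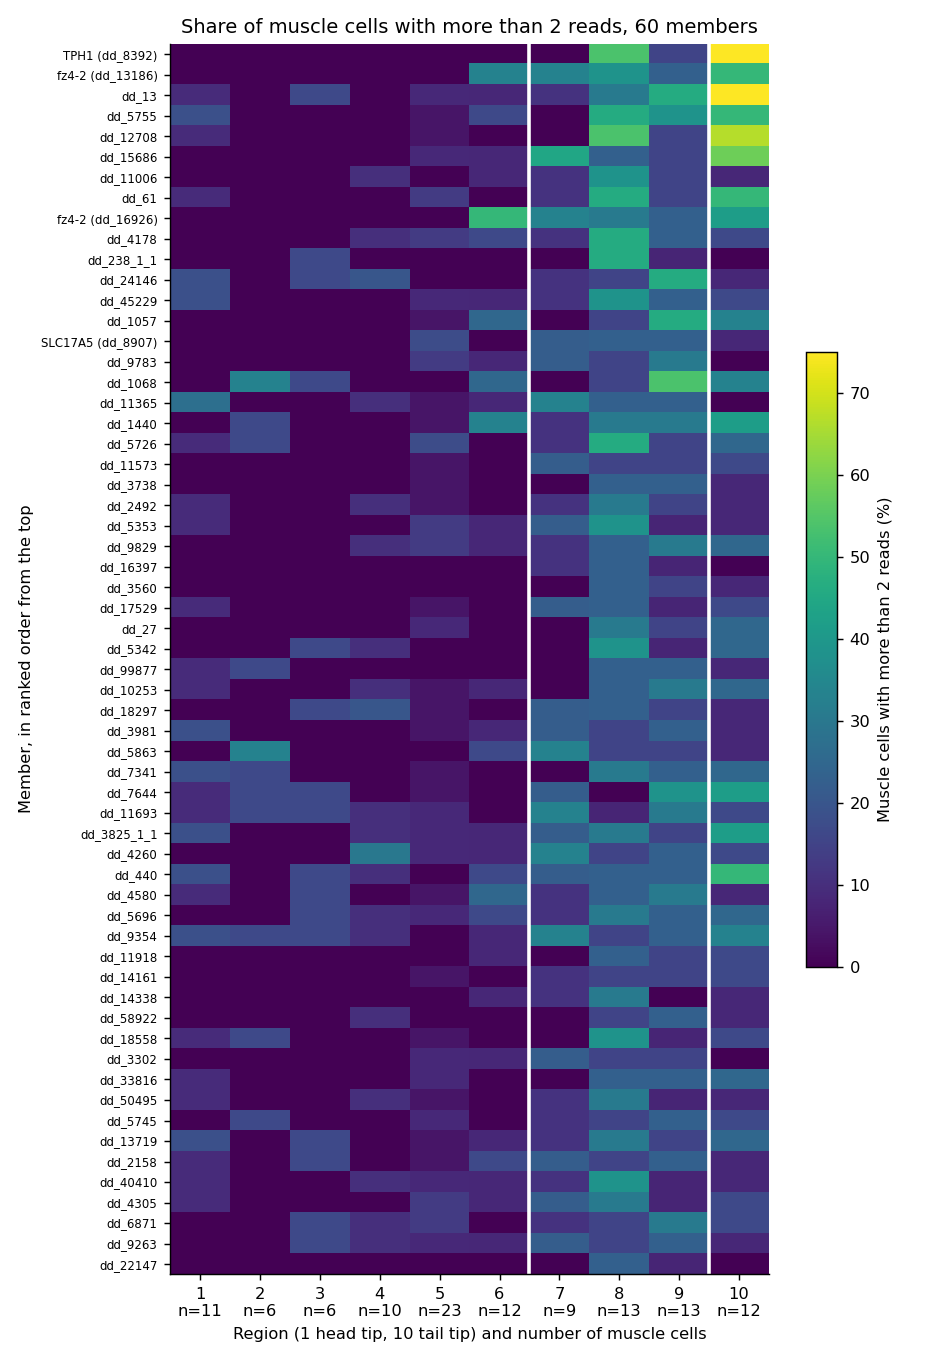
Share of muscle cells with more than 2 reads (colour, %) for the 60 members (rows, in ranked order) in each of the 10 regions (columns, with the number of cells); white lines bound regions 7 to 9, the cells that chose the members together with regions 1 to 6. As deposited, region 8, the deepest of regions 7 to 9 by median reads, holds the largest share of them for 29 members. TPH1 and dd_13 were found in 9 of the 12 cells of region 10.

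At the limit of the ranking the members were not set apart from what follows. The last members inside were dd_6871 and dd_9263, each found in 7 of 35 cells of regions 7 to 9 and 5 of 68 of regions 1 to 6, and dd_22147, found in 4 of 35 and 0 of 68. The first transcripts outside, dd_30748, dd_3453 and dd_5121, had the same 4 of 35 and 0 of 68 as dd_22147, so 4 transcripts were tied at the limit and the order of rows in the table decided. The 60 were also sensitive to how they were chosen: 20 of them stayed among the first 60 when 1 read was enough, 15 when more than 10 reads were asked for, and 14 after thinning to 50000 reads. Of the 17 other settings tried, 1 member, the fz4-2 contig dd_13186, stayed among the first 60 in every one, dd_15686 in 16 and TPH1 in 14, while the median member stayed in 9.

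TPH1, the serotonin synthesis enzyme, headed the ranking. It was found in 0 of 9 muscle cells of region 7, 7 of 13 of region 8 and 2 of 13 of region 9, against 0 of 68 of regions 1 to 6, which allows a share of up to 4.41% there. Its summed reads came to 0.0, 13.7 and 3.52 cpm in regions 7, 8 and 9, against a median of 0.0 and a highest value of 0.47 cpm over regions 1 to 6. Region 8 was the highest of these and region 7 was at 0, like most of the anterior regions. In such sums, fewer cells with a transcript and less of it per cell cannot be told apart. In region 10, which the choice did not use, TPH1 was found in 9 of 12 muscle cells (exact binomial 95% interval 42.8% to 94.5%), at 34.3 cpm. After thinning it was found in 3 of 12 cells of region 10, in 3 of 33 of regions 7 to 9 and in 0 of 65 of regions 1 to 6.

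The TPH1 cells were divided by number range as well as by region. In regions 8 to 10 it was found in 4 of 6 muscle cells of range A, in 14 of 17 of range B and in 0 of 15 of range C. Among the non-muscle cells of regions 8 to 10, it was found in 6 of 7 cells of range B and in 0 of 12 of range C. In regions 1 to 6 it was found in 0 of 43 muscle cells of range A, 0 of 7 of range B and 0 of 18 of range C, and in 0 of 32 non-muscle cells. Within ranges A and B, the share in regions 8 to 10 was thus larger than in regions 1 to 6, and in range C no cell of any region had it. Region 7 had it in 0 of 6 muscle cells of range A and 0 of 3 of range C. The 6 cells of range A are all of region 8 and were among those that chose TPH1, as were those of range B in regions 8 and 9. In region 10, it was found in 9 of 9 muscle cells of range B and 0 of 3 of range C, where range B was the deeper (median 1608695 against 244078 reads). The levels were low, with a median of 6 reads in the muscle cells of regions 7 to 9 where it was found. The cell with the most TPH1 reads was a non-muscle cell of region 9 in range B, with 753 of the 1464 in the whole table. Neither its part nor that of the range in the shares of other cells was tested.

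By the limit of more than 2 reads, the fz4-2 contigs were found in muscle cells alone, from region 6 backwards. The contig dd_13186 was found in 3 of 9, 5 of 13 and 3 of 13 muscle cells of regions 7, 8 and 9, against 4 of 12 cells of region 6 and 0 of 56 of regions 1 to 5, which allows a share of up to 5.36%. Its level was 187.8, 36.2 and 16.9 cpm in regions 7, 8 and 9, against a median of 0.0 and a highest value of 81.3 cpm over regions 1 to 6. The highest anterior value belonged to region 6, the neighbour of region 7, and it lay above regions 8 and 9, so the groups overlapped. The contig dd_16926 was found in 3, 4 and 3 cells of regions 7, 8 and 9, against 6 of 12 of region 6 and 0 of 56 of regions 1 to 5. Its level was 195.4, 39.4 and 20.8 cpm in regions 7, 8 and 9, against a highest value of 89.2 cpm, again in region 6. The region with the highest summed level was region 7 for both.

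The same cells carried both fz4-2 contigs. All 10 cells of regions 7 to 9 with dd_16926 also had dd_13186, which was found in 11. In region 10, the contigs were found in 6 (dd_13186) and 5 (dd_16926) of 12 muscle cells, and all 5 had both. At 73.8 and 53.5 cpm in region 10, they stood between regions 7 and 8. There, 1 cell held 84.7% of the dd_13186 reads and 71.0% of the dd_16926 reads, so both levels rest mostly on it. None of the 62 non-muscle cells had either contig (upper limit 4.84%) in any region. Within the ranges, dd_13186 was found in 5 of 12 cells of range A, 3 of 8 of range B and 3 of 15 of range C in regions 7 to 9, against 2 of 43, 0 of 7 and 2 of 18 in regions 1 to 6. In each range the share in regions 7 to 9 was larger than over regions 1 to 6 pooled, in a split of cells that chose the contig. All of the anterior cells with it were of region 6, so these pooled shares do not compare regions 7 to 9 with region 6.

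The unannotated contig dd_15686 was found in 4 of 9, 3 of 13 and 2 of 13 muscle cells of regions 7, 8 and 9, against 2 of 23 in region 5, 1 of 12 in region 6 and none in regions 1 to 4. The levels were 269.7, 30.4 and 12.0 cpm in regions 7, 8 and 9, against a highest value of 7.34 cpm over regions 1 to 6, in the cells that chose the contig. In region 10 it was found in 7 of 12 cells (58.3%, interval 27.7% to 84.8%) at 162.5 cpm, and in 5 of 12 after thinning there, a thinned share that no other member exceeded in region 10. Non-muscle cells had it in 1 of 23, 1 of 32 and 1 of 7 cells of regions 7 to 9, 1 to 6 and 10. It was found in 5 of 12, 1 of 8 and 3 of 15 cells of ranges A, B and C in regions 7 to 9, against 1 of 43, 0 of 7 and 2 of 18 in regions 1 to 6.

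The contig dd_14161 was rarer and stronger. It was found in 1, 2 and 2 muscle cells of regions 7, 8 and 9, against 1 of 23 in region 5 and none elsewhere in regions 1 to 6. Where it was found in regions 7 to 9, a cell had between 351.0 and 1720 cpm. Its summed level was 114.4, 19.9 and 37.7 cpm in regions 7, 8 and 9, against a highest value of 89.7 cpm over regions 1 to 6, which came from that 1 cell of region 5, so the groups overlapped. Region 10 had it in 2 of 12 cells, and none of the 62 non-muscle cells did. SLC17A5 was found in 2, 3 and 3 cells of regions 7, 8 and 9, against 4 of 23 in region 5 and none in the other anterior regions. Summed over cells its level was 30.5 cpm over regions 7 to 9 and 33.7 cpm over regions 1 to 6, and 1 of 12 cells of region 10 had it.

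**Figure D2:**
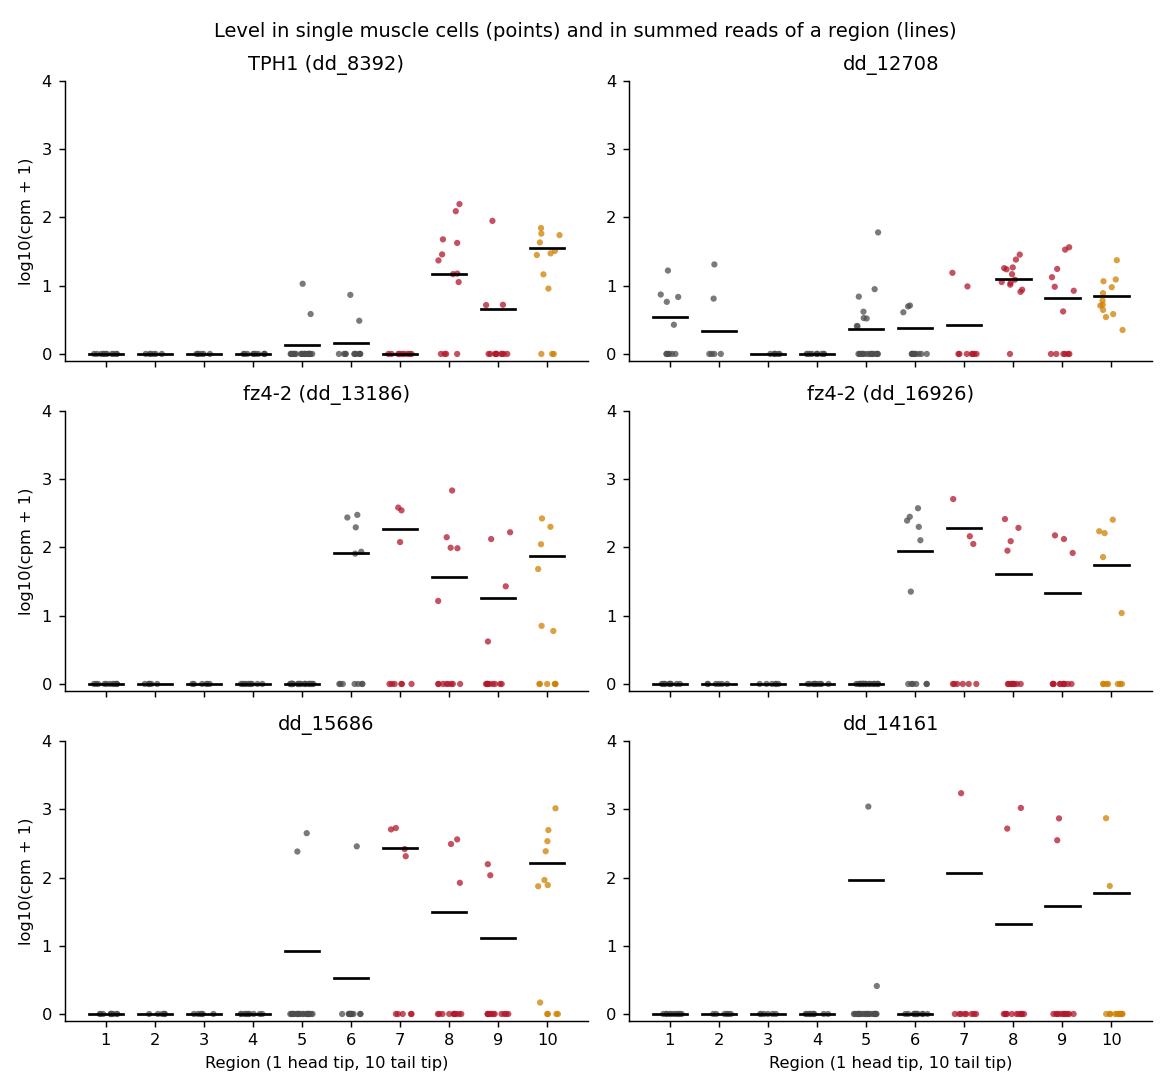
Level of 6 members in each of the 115 muscle cells (points, log10 of cpm + 1) by region, with the level of the summed reads of a region as a black line; red points are regions 7 to 9, orange points region 10 and grey points regions 1 to 6. The fz4-2 contigs start in region 6, and TPH1 was found in part of the cells of regions 8 to 10. The highest cell for dd_12708, at 59.4 cpm, was of region 5, and the highest of regions 7 to 9 had 35.6 cpm.

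Other members rested on few reads per cell. For 16 of the 60, the median was 5 reads or fewer in the muscle cells of regions 7 to 9 where they were found, a division made after the values were seen. They gave 121 findings of a member in a cell, of which 84 (69.4%) were in range C and 22 remained after thinning. The other 44 members gave 324 findings, 148 (45.7%) in range C, and 190 remained after thinning. Range C made up 42.9% of the cells. Among the 16 are several near the top of the ranking, dd_13, dd_5755, dd_12708 and dd_61, and none of them has a name in the sources used here.

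The contig dd_13 was found in 1, 4 and 6 muscle cells of regions 7, 8 and 9, against 5 of 68 in regions 1 to 6, with 3 to 9 reads in each posterior cell. Its level was 4.17, 6.73 and 10.2 cpm in regions 7, 8 and 9, against 1.59 to 3.72 cpm over regions 1 to 6, again in the cells that chose the contig. In region 10 it was found in 9 of 12 cells, but the level, 2.36 cpm, was within the anterior range, and after thinning it was found in 0 of 12 cells. Within range C it was found in 10 of 15 muscle cells of regions 7 to 9 and 2 of 18 of regions 1 to 6, in range B in 1 of 8 and 3 of 7, and in range A in 0 of 12 and 0 of 43. The share of dd_5755 came from 7 of 15 cells of range C, 4 of 8 of range B and 0 of 12 of range A in regions 7 to 9, against 2 of 18, 1 of 7 and 2 of 43 in regions 1 to 6. The contig dd_61 was found in 9 of 35 muscle cells of regions 7 to 9 and 4 of 68 of regions 1 to 6, with 3 to 11 reads in each posterior cell.

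Outside region 10, dd_13, dd_5755 and dd_61 were found in a larger share of non-muscle than of muscle cells. Of the non-muscle cells of regions 7 to 9 and of regions 1 to 6, dd_13 was found in 10 of 23 and 8 of 32, dd_5755 in 10 of 23 and 9 of 32, and dd_61 in 12 of 23 and 12 of 32. A non-muscle cell of region 8 had 5118 of the 17131 dd_61 reads in the table. The contig dd_238_1_1 was more extreme: 1 non-muscle cell of region 6, in range A, held 43900 of its 44160 reads, and 6 of its 7 posterior muscle cells were also of range A. It was found in 0 of 12 muscle cells of region 10. The part of these cells in the low counts of others was not tested.

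**Figure D3:**
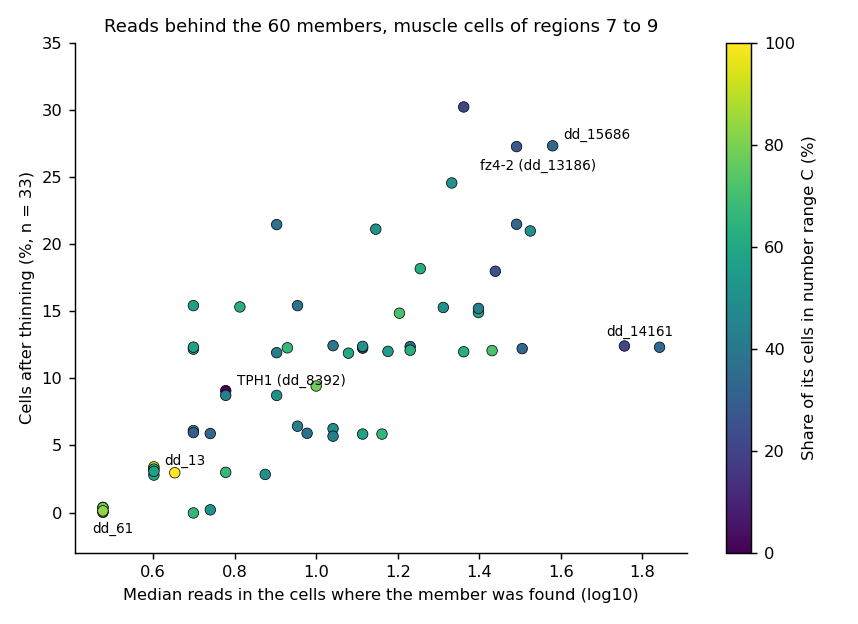
For each of the 60 members, the median number of reads in the muscle cells of regions 7 to 9 where it was found (horizontal axis, log10) and the share of 33 cells in which it was still found after thinning to 50000 reads (vertical axis, %, moved slightly to show overlapping points); colour is the share of its cells in number range C. Of the 16 members with a median of 5 reads or fewer, 6 were found in no cell after thinning.

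Over all members, 40 were found in a larger share of non-muscle than of muscle cells over all regions, and 20 in a larger share of muscle cells. Of all transcripts found in any cell, 64.5% were found in a larger share of non-muscle cells, as were 57.0% of those that met the limit and were found in muscle of regions 7 to 9, so the members' count was near these shares. Absent from all non-muscle cells were 3, the fz4-2 contigs and dd_14161, and dd_2492, without a name, was found in 11 of 115 muscle and 1 of 62 non-muscle cells.

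**Figure D4:**
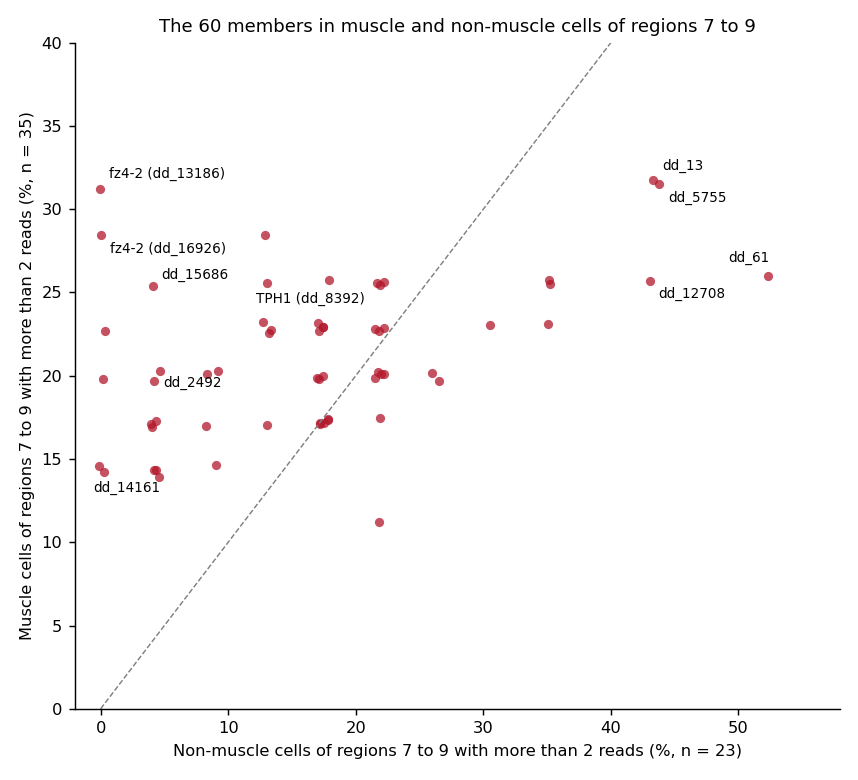
Share of the 35 muscle cells (vertical axis) and of the 23 non-muscle cells (horizontal axis) of regions 7 to 9 in which each of the 60 members was found, moved slightly to show overlapping points; the dashed line marks equal shares. The fz4-2 contigs and dd_14161 stand at 0% of non-muscle cells, and dd_61, dd_13, dd_5755 and dd_12708 lie to the right of the line.

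Region 10 holds muscle cells that had no part in the choice, but as 1 sample it allows no test. A share above 10% in region 10 was reached by 36 of 60 members, beside 8.48% of the 17892 transcripts that met the limit on regions 1 to 6 and were not left out by name. After thinning it was 12 of 60, beside 1.71%. Most of the 17892 were found in no muscle cell of regions 7 to 9; of the 5289 that were, 22.1% had such a share, and 5.07% after thinning. In region 10, 52 members passed 10% in the 9 cells of range B alone and 14 in the 3 cells of range C alone. In either range 1 cell is enough to pass, whereas 1 of all 12 is not. No share over all transcripts was computed within the ranges. The next 60 transcripts in the ranking gave 28 and, thinned, 8, so the members and the transcripts just below them both exceeded these shares. Of the 60, 53 had a larger share in region 10 than over regions 1 to 6, beside 44 of the next 60, 22.6% of the 17892 and 46.1% of the 5289. Members were found in 4 to 11 muscle cells of regions 7 to 9, whereas 1 such cell was enough for the 5289. After thinning 31 members had a larger share, beside 23 of the next 60, 8.91% of the 17892 and 21.5% of the 5289. The median member was found in 16.7% of the cells of region 10, 6 members in none, and, after TPH1, dd_13, dd_12708 and dd_15686, the largest shares were the 6 of 12 cells of dd_13186, dd_5755, dd_61 and dd_440. After thinning, 3 of 12 cells remained for dd_13186, 0 for dd_5755 and dd_61, and 4 for dd_440. For dd_440 its level was 114.4 cpm, against 0.0 to 42.5 cpm in regions 1 to 6.

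Posterior muscle cells held several members at a time. A cell of regions 7 to 9 had a median of 12 of the 60 (range 2 to 28), against 3 (0 to 10) in regions 1 to 6, a difference that the choice of members sets. In region 10, which the choice left out, the median was 13 (5 to 24), and after thinning it was 5 (0 to 9), against 1 (0 to 6) in regions 1 to 6 and 7 (0 to 13) in regions 7 to 9. The limit on members kept the count in regions 1 to 6 low, so the difference from region 10 is partly set by the choice. The median as deposited was 14 in the 9 cells of region 10 in range B and 5 in the 3 cells in range C, the first also the deeper ones (median 1608695 and 244078 reads). Non-muscle cells had a median of 10 in regions 7 to 9, 8 in regions 1 to 6 and 10 in region 10, and of 3 in each after thinning. Across the 35 muscle cells of regions 7 to 9, the number of members followed the number of reads (log10; Pearson's r = 0.75, Spearman's rho = 0.75), a description over cells that share regions and ranges.

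**Figure D5:**
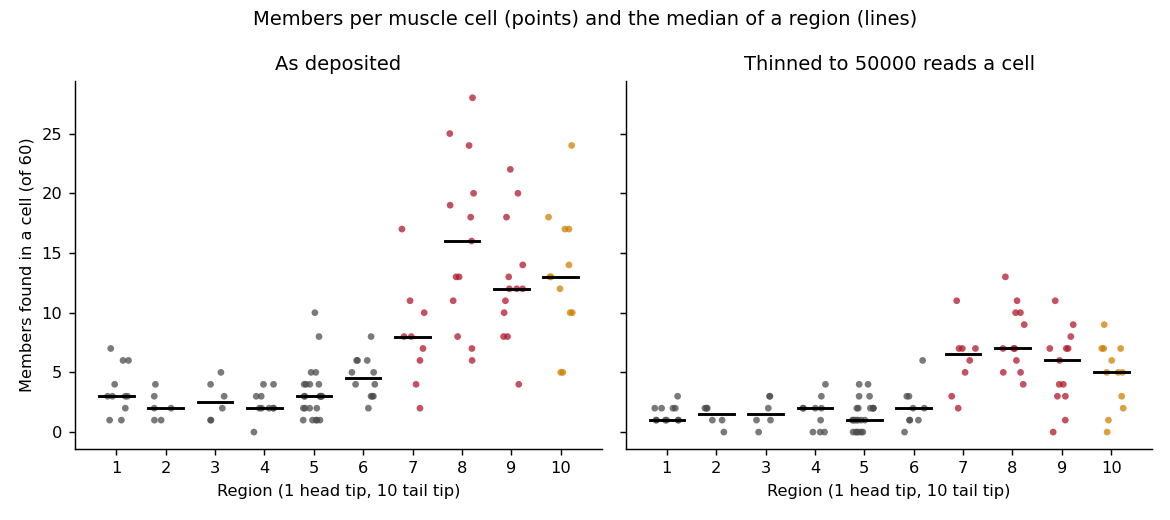
Number of the 60 members found in each muscle cell (points) by region, as deposited (left) and after thinning each cell to 50000 reads (right, shallower cells left out), with the median of a region as a black line; red points are regions 7 to 9, orange points region 10 and grey points regions 1 to 6. The median over region 10 is 13 as deposited and 5 after thinning.

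Non-muscle cells of the same regions give the other values that the choice did not use, and allow a test. The reads of the non-muscle cells were summed for each region, and regions 7, 8 and 9 were tested against regions 1, 3, 4, 5 and 6 (region 2 has no non-muscle cell) with edgeR's quasi-likelihood test over 12906 transcripts. None of the 51 members that passed the filter on low counts had an adjusted p under 0.05, beside 0.0% of all transcripts tested, and with limma the count was 0 as well. DESeq2 called 88 transcripts, no member among them, but in simulated data 99 of its 142 calls were false. Those data were drawn with the dispersions that edgeR estimated here, so they do not compare the tools evenly. At an unadjusted p under 0.05, 3 members were higher (5.39% of all transcripts were) and 3 lower (4.61%). In the same simulated data edgeR made no false call and recovered 22 of 100 transcripts changed by 64-fold and 0 of 100 changed by 8-fold, and DESeq2 recovered 38 and 5. Most changes of these sizes would thus be missed. With the number range as a term, added after the data were seen, edgeR called 49 transcripts and within range C alone 7, no member in either.

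By share of non-muscle cells, 36 of the 60 members were found more often in regions 7 to 9 than in regions 1 to 6, beside 44.2% of the transcripts found in these cells, and 21 were found less often. After thinning the counts were 26 and 24. The next 60 in the ranking gave 32 and 26 as deposited, and 19 and 28 after thinning. Of the 5289 transcripts that met the limit and were found in muscle of regions 7 to 9, the thinned counts were 1089 and 1809. Within ranges, 23 members were found more often and 22 less often in range B, and 24 more often and 31 less often in range C. Range A had 1 posterior cell. No share over all transcripts was computed within ranges, so these counts have nothing to be set beside. The median log2 difference over the 51 members tested was 0.56, and over all transcripts tested it was -0.09. With the range as a term these medians were 0.05 and -0.45, and within range C alone 1.12 and 0.59.

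The 3 higher members at an unadjusted p under 0.05 were TPH1, dd_11006 and dd_61. TPH1 had 0, 21 and 753 reads in the non-muscle cells of regions 7, 8 and 9, against 0 reads in each of regions 1, 3, 4, 5 and 6 (edgeR, adjusted p = 0.119). Set against a floor of 3 reads over the anterior group, this was at least 212-fold higher in regions 7 to 9, and at least 7.86-fold higher without region 9, where 1 cell gave all of the reads. For TPH1, the adjusted p was between 6.37e-06 and 0.999 over the alternatives in which it was tested and had an adjusted p, and under 0.05 with library size alone (0.0475), without a filter (6.37e-06) and without region 7 (0.000621). The contig dd_11006 had 95.9, 0.39 and 6.02 cpm in regions 7, 8 and 9, against 0.0 to 5.70 cpm in the anterior regions, and dd_61 had 32.4, 1890 and 150.0 cpm against 1.90 cpm in region 4, 151.5 cpm in region 6 and a still higher level in region 5, so the groups overlapped for both. Of the 3 lower members, dd_11693 and dd_14338 had 0 reads in the non-muscle cells of regions 7 to 9 and were found in 5 and 3 of 32 of those of regions 1 to 6, and dd_238_1_1 was the contig with most of its reads in 1 cell of region 6.

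The contig dd_12708 was the 1 member with every posterior non-muscle region above every anterior one, beside 0.69% of all transcripts tested, and no member had every one below (0.589%). It had 4.44, 5.99 and 5.75 cpm in the non-muscle cells of regions 7, 8 and 9, against 0.0 to 1.99 cpm in regions 1, 3, 4, 5 and 6 (edgeR, log2 difference 3.92 ± 2.00 (SE), adjusted p = 0.562). It was found in 10 of 23 non-muscle cells of regions 7 to 9, against 0 of 32 of regions 1 to 6. After thinning these counts were 1 of 23 and 0 of 32. In muscle it was found in 0, 7 and 2 cells of regions 7, 8 and 9, against 2 of 68 of regions 1 to 6, at 1.67, 11.6 and 5.63 cpm against a highest value of 2.47 cpm, and in 8 of 12 cells of region 10 (66.7%, interval 34.9% to 90.1%), none of which remained after thinning. In regions 8 to 10, range A had it in 1 of 6 muscle cells, range B in 9 of 17 muscle and 5 of 7 non-muscle cells, and range C in 7 of 15 muscle and 5 of 12 non-muscle cells. All of this rests on a few reads a cell, 4 to 10 in the muscle cells of regions 7 to 9, and after thinning it was found in 0 of 33 of them.

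Among the left-out regulators, fz4-1, another Frizzled receptor, was found in 25 of 35 muscle cells of regions 7 to 9, while no member was found in more than 11. The Wnt ligand wnt11-2 was found in 8 of 35 muscle cells of regions 7 to 9, 4 of 68 of regions 1 to 6, 8 of 12 of region 10 and, like the fz4-2 contigs, 0 of 62 non-muscle cells. Of 9 other posterior genes that the study lists, 2 are members (fz4-2 as dd_13186, and dd_15686). The study drew candidates from these samples and also examined them by in situ hybridization. The other 7 were found in more than 10% of the cells of regions 1 to 6 and so could not be members: hox4b, a Hox transcription factor, was found in 25 of 35 cells of regions 7 to 9 and 22 of 68 of regions 1 to 6, and axin2, in vertebrates a negative regulator of Wnt signalling, in 20 of 35 and 33 of 68.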

How the data were processed

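Single-cell cDNA was amplified with SmartSeq2, which has no molecular identifiers. The authors sequenced each cell with reads of 80 and of 40 bases, used cutadapt for trimming and bowtie 1 for mapping to the dd_Smed_v4 contigs, discarded prominent mitochondrial and ribosomal RNAs, summed the counts of each isotig and kept libraries with at least 1000 transcripts. CASAVA 1.7.0 is named in the submitters' processing notes. The deposited read counts, not normalized, cover 26560 transcripts and 177 cells with 19205 to 3884642 reads. Mapping to contigs can split 1 gene between rows, or share reads between similar ones.

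Which cells are muscle was taken from the study. The members and all lists were chosen with earlier results of these data known. The deposited SCDE tables hold the authors' own comparisons of anterior and posterior cells and were not used. Genes are named by a rule: the first 12 members, members the study names, those with the 5 largest region 10 shares, those called in the non-muscle test, and the 3 on each side of the limit. Any other contig was named after its values were seen.

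Shares are cells with more than 2 reads, with exact binomial 95% intervals; intervals, and the upper limits that a count of 0 allows (3 cells), cover counting error only. Thinning drew 50000 reads from each cell and left out 2 muscle cells of regions 7 to 9 and 3 of regions 1 to 6. Counts of non-muscle cells were summed by region, and those exceeding 2 reads in 3 cells or more were tested with edgeR 4.0.16 (robust quasi-likelihood, TMM) in R 4.3.3, with Benjamini-Hochberg adjustment over all transcripts. The p-values measure the spread between regions, since no animal is named. Alternatives used DESeq2 1.42.0 (poscounts), limma 3.58.1 on log2(cpm + 1), other filters, thresholds and scaling, left out regions or ranges, and, added after the data were seen, took the range as a term (sums of each region and range, 6 posterior and 9 anterior, which share regions) or range C alone (3 and 2 sums). The test was tried on simulated data with 200 changed transcripts, drawn with the dispersions that edgeR estimated from the non-muscle sums. The rest was done in Python 3.11.15 (pandas 2.3.3, numpy 2.4.6, matplotlib 3.10.9, scipy 1.17.1).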

Additional observations from a re-analysis of the deposited data

Results flagged for a closer look

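Taking regions as samples, 16 members were examined over muscle regions 1 to 6 and over non-muscle regions 1, 3, 4, 5 and 6, and in 15 of 29 such groups 1 region stood far from the others, where chance would give about 1 in 20 for normally distributed values. That rate does not apply to counts near 0, as many of these are: in 5 of the 15 every other region was at 0, once on a single read (dd_13186 in non-muscle cells), and the members were chosen to be rare in front. The measure is the gap to the nearest region divided by the whole range of the group. In muscle, region 6 stood apart for both fz4-2 contigs, dd_13186 (81.3 cpm, gap 1.0) and dd_16926 (89.2 cpm, gap 1.0), which were at 0 in regions 1 to 5. Region 5 stood apart for dd_15686 (7.34 cpm, gap 0.682), SLC17A5 or dd_8907 (87.2 cpm, gap 0.997) and dd_14161 (89.7 cpm, gap 1.0). Region 4 stood apart for dd_11006 (5.58 cpm, gap 0.832) and dd_24146 (19.8 cpm, gap 0.780), region 3 for dd_238_1_1 (21.8 cpm, gap 0.962) and region 2 for dd_11693 (275.3 cpm, gap 0.760). In non-muscle cells, region 1 stood apart for dd_13186 (0.28 cpm, gap 1.0), dd_15686 (7.33 cpm, gap 1.0) and dd_11693 (109.9 cpm, gap 0.997), region 6 for dd_238_1_1 (12206 cpm, gap 1.00) and dd_24146 (3.34 cpm, gap 0.900), and region 4 for dd_14338 (68.4 cpm, gap 0.905).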

How the results depend on the processing

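Of the 60 members, 20 stayed among the first 60 with at least 1 read as the limit, 15 with more than 10 reads, 14 after thinning, 32 with regions weighted equally and 34 with region 10 added. Without the cells of range A, B or C, 21, 34 or 17 stayed. Leaving out 1 muscle region at a time kept 25 to 52 of them, with 25 without region 5, 39 without region 6, 29 without region 8 and 31 without region 9. The number of members with a region 10 share above 10% was 12 after thinning and 14 in the cells of range C alone, against 36. Another 3 settings gave 24 to 52, the 52 in the cells of range B alone. Within either range, 1 cell is enough to pass. The number found more often in posterior non-muscle cells, 36, was 26 to 36 in 4 other settings, 23 in range B alone and 24 in range C alone, both added after the data were seen. In the non-muscle test, which called 0 transcripts (1291 at an unadjusted p under 0.05), DESeq2 called 88, library size alone 45, and no filter other than 1 read 306. The other tool, limma, called 0 (274 unadjusted), and so did adding region 10. Added after the data were seen, the number range as a term gave 49 calls and range C alone 7. Leaving out 1 region gave 0 to 181 calls, with 3 without region 1, 181 without region 7 and 181 without region 8. TPH1 was the 1 member called in any of these, with library size alone, without a filter and without region 7, and it was not tested without region 8 or region 9 or in range C alone. The cause of these differences was not tested. The median number of members per cell of regions 7 to 9, 12, was 7 after thinning and 7.5 in range A. No paired analysis was possible because no number is shared between the groups. Region 10 and each posterior region are 1 sample each, and 35 posterior cells put a share of 4 cells within wide intervals (4 of 35 for dd_22147, 3.20% to 26.7%).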
